A study of Sus scrofa with 14 samples.

Results

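A set of 44 genes of DNA replication and mitosis was followed through the conversion of pig epiblast stem cells into muscle cells. The set was given as 53 gene names, and its members are the names that stand in the first column of the deposited expression table, which holds 15031 rows. They fall into 22 S-phase genes and 22 mitotic genes. The remaining 9 names (*RRM2*, *CDT1*, *CCNE1*, *CCNA2*, *CDK2*, *AURKA*, *MKI67*, *NUSAP1* and *FOXM1B*) do not head a row and are not members, although 4 of them could be matched through an Ensembl identifier and are given apart. All 44 members passed the filter on low values, *PRC1* only through pgEpiSCs-high and *CDC25C* only through pgEpiSCs and pgEpiSCs-MPCs, the groups in which each is highest.

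RNA-seq libraries of 5 groups were compared, and all were of wild-type genotype per the labels. pgEpiSCs are porcine pre-gastrulation epiblast stem cells, a pluripotent line kept without differentiation treatment (day 0) on mouse embryonic fibroblast feeders in a medium with CHIR99021, IWR-1-endo, WH-4-023, LIF, activin A and FGF2. They were sampled at low passage (pgEpiSCs-Low, 3 libraries) and at high passage (pgEpiSCs-high, 3 libraries). pgEpiSCs-MPCs (day 8, 2 libraries) and pgEpiSCs-MCs (day 44, 3 libraries) were derived from pgEpiSCs without serum. Both passed through the WNT activator CHIR99021 with the TGF-β inhibitor SB431542, then, per the methods, CHIR99021 with FGF2 and the BMP inhibitor LDN193189, and then HGF, IGF-1, FGF2 and LDN193189. The pgEpiSCs-MCs went on to IGF-1 alone, to HGF with IGF-1, and last to a medium with N2 supplement. MPC-Dif (3 libraries) are primary muscle stem cells from the dorsal muscle of 1-week-old pigs, grown with fetal bovine serum and FGF2 to near confluence and then held for 4 days in horse serum medium to differentiate. Tissue origin, serum and time in culture therefore differ together between MPC-Dif and the pgEpiSCs-derived groups and cannot be told apart. The methods speak of biological replicates without saying whether these were separate cultures, so each p-value measures only the spread between these libraries, which may be technical.

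A dividing cell copies its DNA in S phase and separates the copies in mitosis. Origins of replication are loaded with the MCM helicase by CDC6 and CDT1, the helicase is fired with CDC45 and the GINS complex, and polymerases held by the PCNA clamp then copy both strands. Mitosis begins when CDC25 phosphatases activate CDK1 bound to cyclin B, and the spindle checkpoint then delays chromosome separation until every centromere is attached. In mammalian cells S-phase genes are switched on mainly by E2F factors, mitotic genes are controlled through CHR and CCAAT elements, and both classes are silenced when myoblasts leave the cell cycle and fuse.

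Every library summed to nearly the same total of TPM (the length-corrected share of a library's transcripts), so sequencing depth is unknown. From 12150 to 13781 genes per library lay above 0.5 TPM. The 13 mitochondrial protein-coding genes took 19.8% to 24.9% of TPM in pgEpiSCs, 15.8% and 17.1% in pgEpiSCs-MPCs, 6.07% to 6.61% in pgEpiSCs-MCs and 6.74% to 7.10% in MPC-Dif, and a change of this share shifts the TPM of every other gene. Marker lists followed the labels in part. The 6 pluripotency markers in the table summed to 1939 to 2628 TPM in pgEpiSCs, 190 and 231 in pgEpiSCs-MPCs and 105 to 140 in pgEpiSCs-MCs. They summed to 1.35 to 1.61 TPM in MPC-Dif, where *NANOG*, *LIN28A*, *DPPA4* and *ZFP42* were at 0. The 10 skeletal muscle markers summed to 26.3 to 37.6 TPM in pgEpiSCs, 258 and 279 in pgEpiSCs-MPCs, 408 to 447 in pgEpiSCs-MCs and 798 to 870 in MPC-Dif. The 5 muscle progenitor markers summed to 6.38 to 10.1, 141 and 149, 167 to 191 and 57.9 to 60.8 TPM in the same order. The 8 fibroblast markers summed to 14654 to 15933 TPM in pgEpiSCs-MCs and 24512 to 25441 TPM in MPC-Dif against at most 124 TPM elsewhere, and the 7 neural markers summed to 396 to 534 TPM in pgEpiSCs, 1019 and 1025 in pgEpiSCs-MPCs, 1457 to 1587 in pgEpiSCs-MCs and 134 to 145 in MPC-Dif. The 5 epithelial markers summed to 248 to 407 TPM in pgEpiSCs and to at most 45.5 TPM in the other groups. In such bulk samples fewer dividing cells and less RNA per dividing cell cannot be told apart, and the part of the other cell types in the results below was not tested.

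The promoters of the members were searched for the motifs of both classes. Promoter sequence here is the stretch from 250 bases before to 50 bases after the start of the gene in the RefSeq annotation of Sscrofa11.1. It was read for 11959 genes of the table, among them 42 members. The E2F motif was searched as TTTCCCGC, TTTCGCGC, TTTGCCGC or TTTGGCGC, the CHR as TTTGAA and the CCAAT box as CCAAT, each on both strands. A pair of E2F matches may overlap, as they do in *MCM6*. The E2F motif was found in 6 of 20 S-phase promoters (30.0%), 5 of 22 mitotic promoters (22.7%) and 4.04% of all promoters. The CHR was found in 4 S-phase (20.0%) and 12 mitotic promoters (54.5%), against 11.6% of all. The CCAAT box was in 70.0% of S-phase and 77.3% of mitotic promoters, against 35.2% of all. A CHR together with a CCAAT box occurred in 9 mitotic promoters (40.9%), 3 S-phase promoters (15.0%) and 4.69% of all. In genes of the same processes that are not members, the CHR was in 2 of 31 replication promoters (6.45%) and in 18 of 47 mitosis promoters (38.3%). The E2F motif was there in 5 replication (16.1%) and 8 mitosis promoters (17.0%). Base composition moved with the classes, with a median GC content of 57.6% for S-phase, 55.7% for mitotic and 62.0% for all promoters, and its part in the shares was not tested.

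**Figure D1:**
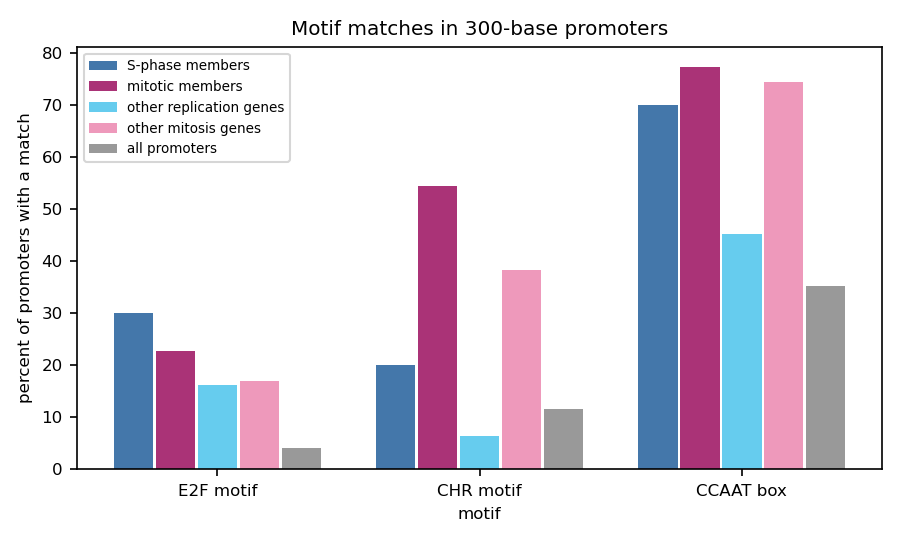
Percent of 300-base promoters with at least 1 match to each motif (vertical axis), for the 20 S-phase and 22 mitotic members with a promoter, other genes of both processes and all 11959 promoters. The CHR bar of the mitotic members stands at 54.5% and that of all promoters at 11.6%.

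The 4 promoter stretches below show these motifs in members whose levels are described below, each of 120 bases, written 5′ to 3′ on the strand of the gene with every match in capitals (ATTGG is a CCAAT box on the opposite strand). *MCM6* (chr15:15923505-15923624, plus strand) carries 3 E2F matches, of which the first pair overlaps, and 2 CCAAT boxes. *CDK1* (chr14:64233831-64233950, plus strand) carries an E2F motif, a CHR and 2 CCAAT boxes. *CCNB2* (chr1:112942212-112942331, minus strand) carries 3 CCAAT boxes followed by a CHR, and *TOP2A* (chr12:22001121-22001240, plus strand) a CHR and 3 CCAAT boxes. Further matches of these promoters lie outside the stretches, at positions counted from the gene start. They are a CHR of *MCM6* (-231), a CHR of *CDK1* (29), and a CHR (6) and CCAAT boxes (-224 and -29) of *TOP2A*.
MCM6: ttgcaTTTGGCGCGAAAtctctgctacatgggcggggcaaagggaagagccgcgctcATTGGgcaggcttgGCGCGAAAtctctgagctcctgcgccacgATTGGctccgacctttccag
CDK1: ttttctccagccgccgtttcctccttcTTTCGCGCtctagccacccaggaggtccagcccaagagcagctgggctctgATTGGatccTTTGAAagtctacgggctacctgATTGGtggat
CCNB2: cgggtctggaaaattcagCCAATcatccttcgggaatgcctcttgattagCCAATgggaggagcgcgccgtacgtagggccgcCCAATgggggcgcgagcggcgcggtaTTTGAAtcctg
TOP2A: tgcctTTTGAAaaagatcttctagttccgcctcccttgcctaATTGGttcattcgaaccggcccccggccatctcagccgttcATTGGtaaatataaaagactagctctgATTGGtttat
A match describes these letters only, and no binding was measured.

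Across the 5 groups both classes followed one course. The 22 S-phase genes summed to 2544 to 2814 TPM per library in pgEpiSCs, 3599 and 3806 TPM in pgEpiSCs-MPCs, 968 to 1014 TPM in pgEpiSCs-MCs and 441 to 452 TPM in MPC-Dif. The 22 mitotic genes summed to 2535 to 2884, 4158 and 4386, 1589 to 1705 and 239 to 307 TPM in the same order. Both sums were highest at day 8 and lowest in MPC-Dif, without overlap between pgEpiSCs, pgEpiSCs-MPCs, pgEpiSCs-MCs and MPC-Dif. The highest group mean was that of pgEpiSCs-MPCs for 17 S-phase and 18 mitotic genes. The lowest was that of MPC-Dif for 21 genes of each class, and the exceptions were *TYMS*, lowest in pgEpiSCs-MCs, and *CDC25B*, lowest in pgEpiSCs-Low. The highest and lowest groups were not counted over all genes, so these counts have no share beside them.

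**Figure D2:**
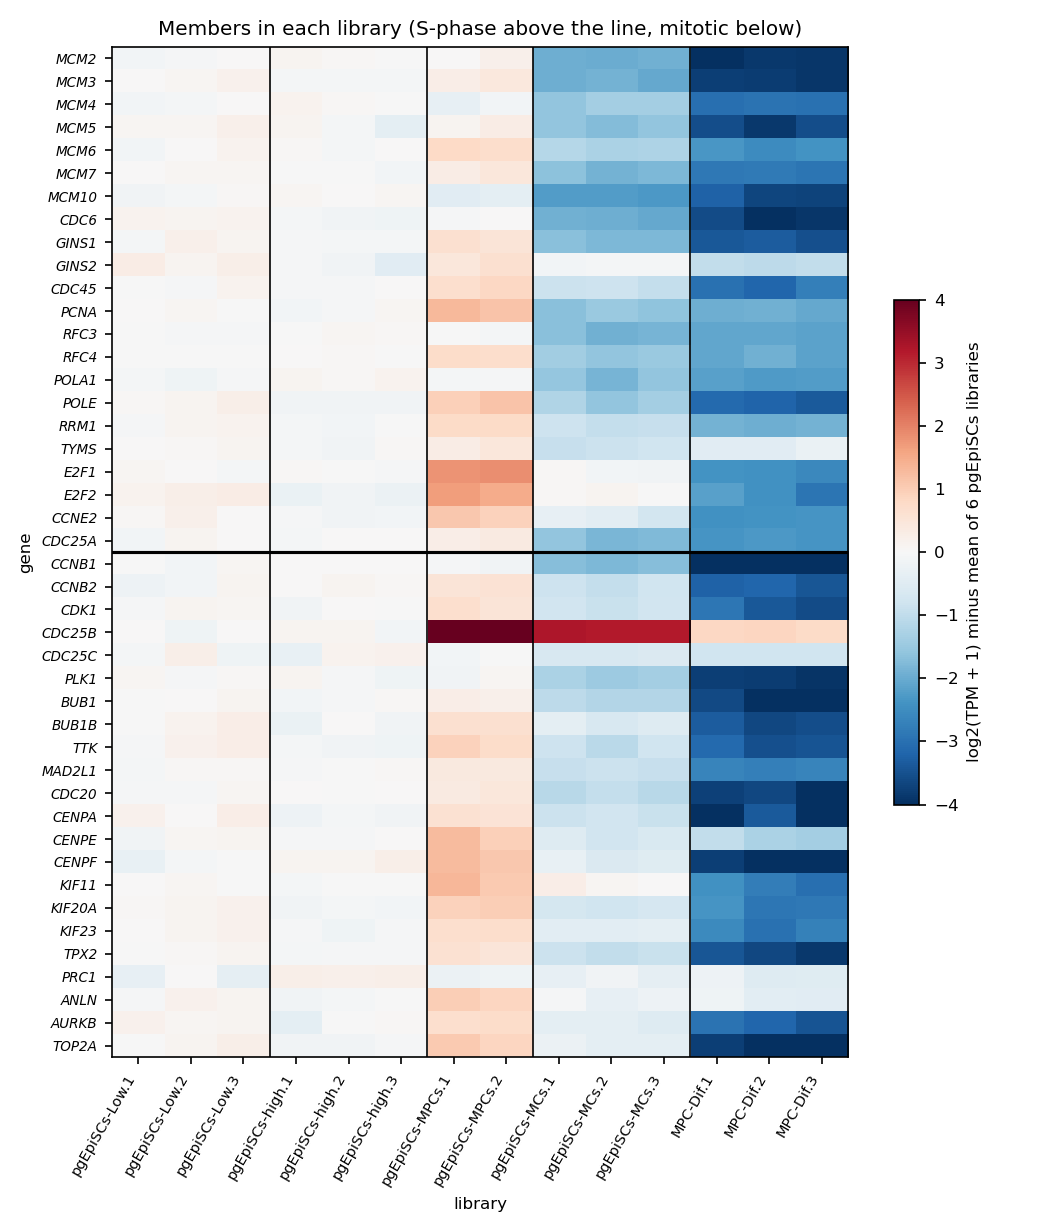
Each cell gives log2(TPM + 1) of a member (vertical axis, S-phase genes above the line) in a library (horizontal axis) minus its mean in the 6 pgEpiSCs libraries, with red above and blue below and colours limited to 4 units. The pgEpiSCs-MPCs columns are mostly red and the MPC-Dif columns darkest blue, with *CDC25B*, *TYMS*, *ANLN* and *PRC1* apart.

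Among the genes that load and fire the helicase, *MCM2*, a subunit of the MCM ring, stood at 277, 285 and 299 TPM in pgEpiSCs-Low, 320, 309 and 294 in pgEpiSCs-high, 303 and 339 in pgEpiSCs-MPCs, 75.3, 75.1 and 77.9 in pgEpiSCs-MCs and 17.8, 19.5 and 18.9 in MPC-Dif. Day 8 overlapped the high-passage libraries and lay above the low-passage ones, and pgEpiSCs-MCs and MPC-Dif lay clear below them and apart from each other. *MCM5*, another subunit, stood at 234, 234 and 253 TPM at low passage, 241, 211 and 167 at high passage, 237 and 271 at day 8, 73.1, 66.3 and 73.7 at day 44 and 17.9, 14.3 and 18.2 in MPC-Dif. *MCM3*, a further subunit, went from 201 to 240 TPM in pgEpiSCs to 255 and 289 in pgEpiSCs-MPCs, 54.8, 56.8 and 51.1 in pgEpiSCs-MCs and 13.4 to 14.7 in MPC-Dif. The subunits of the ring work as one complex, yet in pgEpiSCs *MCM7* stood at 417 to 474 TPM and *MCM6* at 140 to 167 TPM. *MCM6*, whose promoter is printed above, rose to 269 and 252 TPM in pgEpiSCs-MPCs and stood at 63.6 to 68.8 in pgEpiSCs-MCs and 26.2 to 29.4 in MPC-Dif. *MCM4* and *MCM10* took another course at day 8. *MCM4* was at 261 to 307 TPM in pgEpiSCs and at 220 and 258 in pgEpiSCs-MPCs, and *MCM10*, which helps to activate the loaded helicase, at 32.0 to 37.5 TPM and at 25.4 and 26.5. *MCM10* then stood at 6.76, 6.72 and 6.35 TPM in pgEpiSCs-MCs, and *CDC6*, the loader, went from 21.3 to 26.7 TPM in pgEpiSCs to 5.68, 5.47 and 5.02 TPM in pgEpiSCs-MCs and 1.09, 0.382 and 0.688 TPM in MPC-Dif.

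Of the genes of DNA synthesis, *PCNA*, the sliding clamp, stood at 105, 110 and 104 TPM at low passage, 97.5, 100.4 and 110 TPM at high passage, 255 and 229 at day 8, 32.2, 36.2 and 33.7 at day 44 and 25.9, 26.7 and 24.5 in MPC-Dif. It more than doubled at day 8, and the day 44 and MPC-Dif values lay close together without overlap. *POLE*, the catalytic subunit of the leading-strand polymerase, was at 43.0 to 56.1 TPM in pgEpiSCs, 93.0 and 106 in pgEpiSCs-MPCs, 20.3, 15.5 and 17.9 in pgEpiSCs-MCs and 3.79 to 4.68 in MPC-Dif. *GINS1*, a part of the firing complex, ran parallel with 52.5 to 64.2 TPM in pgEpiSCs, 87.2 and 79.9 TPM in pgEpiSCs-MPCs and 16.9, 15.4 and 15.4 TPM in pgEpiSCs-MCs. *RFC3*, a subunit of the clamp loader, and *POLA1*, the primer-extending polymerase, did not rise at day 8, where *RFC3* stood at 36.9 and 35.1 TPM against 36.1 to 39.1 TPM in pgEpiSCs. *TYMS*, which makes thymidylate for DNA, was the S-phase gene that changed least in MPC-Dif. It stood at 109 to 130 TPM in pgEpiSCs, 148 and 166 in pgEpiSCs-MPCs, 62.0, 65.2 and 67.7 in pgEpiSCs-MCs and 87.4, 86.1 and 98.8 in MPC-Dif. The MPC-Dif libraries thus lay above all pgEpiSCs-MCs libraries for *TYMS*, the reverse of *RRM1*, the large subunit of ribonucleotide reductase, at 126 to 136 TPM in pgEpiSCs-MCs and 62.4 to 65.1 TPM in MPC-Dif.

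The regulators of entry into S phase differed among themselves at day 8. *E2F1*, an activator of S-phase genes, stood at 48.9, 47.1 and 44.0 TPM in pgEpiSCs-Low, 47.6, 45.7 and 44.5 in pgEpiSCs-high, 163 and 170 in pgEpiSCs-MPCs, 47.3, 42.9 and 41.4 in pgEpiSCs-MCs and 8.02, 7.75 and 6.91 in MPC-Dif. *E2F2*, a related activator, stood at 12, 12.8 and 13.4 TPM at low passage, 8.76, 9.75 and 8.99 at high passage, 36.2 and 32.0 at day 8, 11.2, 11.6 and 10.7 at day 44 and 1.59, 1.19 and 0.561 in MPC-Dif. For both factors pgEpiSCs-MCs lay within or near the range of pgEpiSCs while most S-phase genes lay far below it. *CCNE2*, a cyclin of the G1 to S transition, was at 19.9 to 25.6 TPM in pgEpiSCs, 47.1 and 42.4 in pgEpiSCs-MPCs, 17.1, 16.1 and 12.8 in pgEpiSCs-MCs and 3.30, 3.40 and 3.50 in MPC-Dif. *CCNE1*, its paralogue, is listed under an Ensembl identifier and is no member, and it went the other way at day 8, with 23.9 to 41.3 TPM in pgEpiSCs and 13.3 and 13.6 TPM in pgEpiSCs-MPCs, followed by 3.62 to 5.01 TPM in pgEpiSCs-MCs and 3.74 to 4.02 TPM in MPC-Dif.

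**Figure D3:**
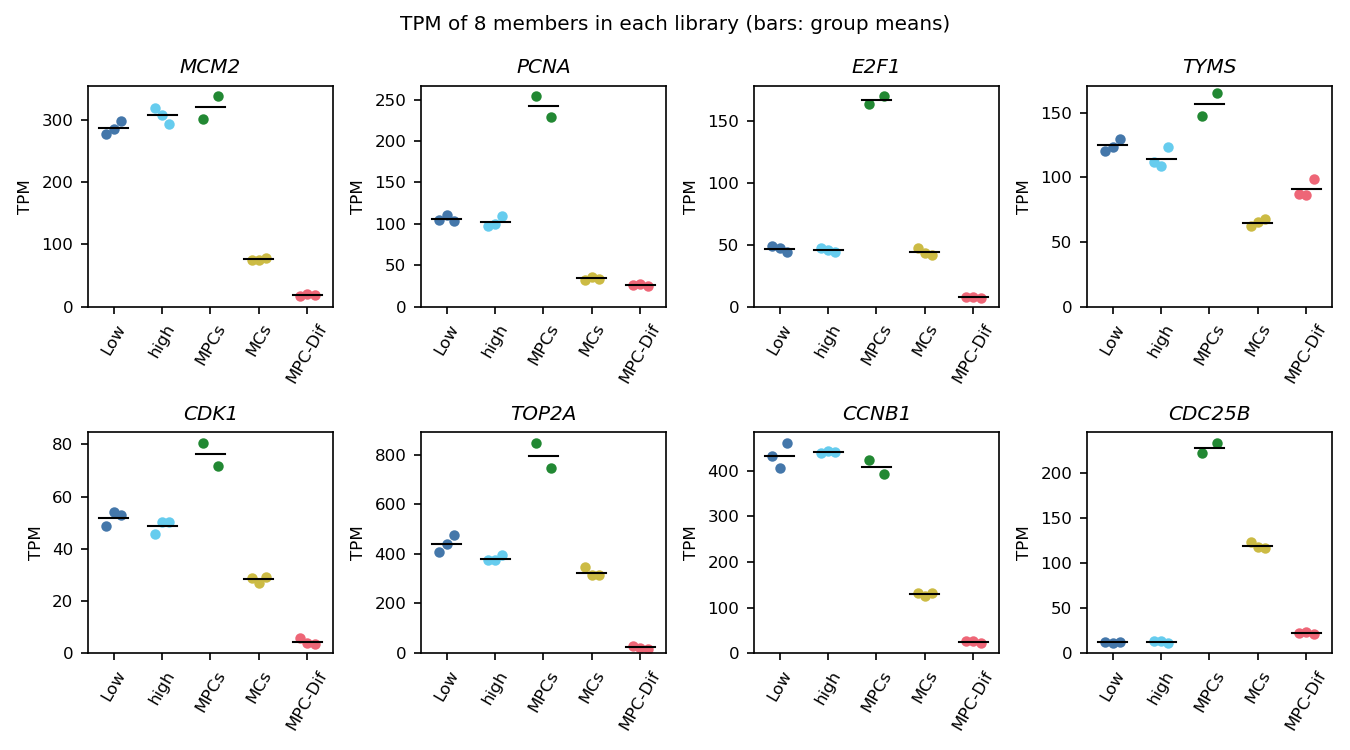
TPM (vertical axes, from 0) of 8 members in each library, with points for libraries and bars for group means. *E2F1* and *PCNA* in pgEpiSCs-MPCs stand clear of all other groups, *MCM2* and *CCNB1* there overlap pgEpiSCs, *TYMS* lies higher in MPC-Dif than in pgEpiSCs-MCs, and *CDC25B* is lowest in pgEpiSCs.

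Among the mitotic entry genes, *CDK1*, the kinase that starts mitosis, stood at 48.6, 54.0 and 52.8 TPM in pgEpiSCs-Low, 45.6, 50.4 and 50.1 in pgEpiSCs-high, 80.7 and 71.8 in pgEpiSCs-MPCs, 28.8, 26.8 and 29.0 in pgEpiSCs-MCs and 5.97, 3.92 and 3.33 in MPC-Dif. *CCNB1*, its cyclin partner, stood at 432, 406 and 462 TPM at low passage, 438, 443 and 441 at high passage, 424 and 394 at day 8, 132, 126 and 132 at day 44 and 26.8, 26.9 and 21.7 in MPC-Dif. The day 8 values of *CCNB1* overlapped those of pgEpiSCs, whereas those of *CCNB2*, the second B-type cyclin, at 144 and 150 TPM lay above the 87.1 to 109 TPM of pgEpiSCs. *CDC25B*, a phosphatase that activates CDK1, was the exception of its class, with 12.3, 10.8 and 12.4 TPM at low passage, 13.4, 13.2 and 11.3 at high passage, 222 and 234 at day 8, 123, 118 and 117 at day 44 and 22.3, 22.9 and 21.2 in MPC-Dif. All 8 libraries outside pgEpiSCs lay above every pgEpiSCs library for this gene. The related phosphatase genes were not alike, since *CDC25A* (G1 and S phase) was at 21.5 to 25.4 TPM in pgEpiSCs and 5.75 to 7.08 in pgEpiSCs-MCs, and *CDC25C* did not exceed 1.04 TPM anywhere and was listed at 0 in all 3 MPC-Dif libraries.

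The chromosome and centromere genes differed widely between groups. *TOP2A*, the topoisomerase that untangles sister chromosomes, stood at 406, 438 and 477 TPM in pgEpiSCs-Low, 375, 374 and 394 in pgEpiSCs-high, 848 and 745 in pgEpiSCs-MPCs, 346, 313 and 313 in pgEpiSCs-MCs and 29.3, 22.3 and 18.3 in MPC-Dif. *CENPF*, an outer kinetochore protein, stood at 110, 129 and 134 TPM at low passage, 145, 146 and 159 at high passage, 326 and 287 at day 8, 110, 91.8 and 97.8 at day 44 and 9.17, 6.29 and 5.73 in MPC-Dif. *CENPA*, the histone of centromeres, was at 49.5 to 68.9 TPM in pgEpiSCs, 87.7 and 84.3 in pgEpiSCs-MPCs, 31.0, 32.9 and 30.6 in pgEpiSCs-MCs and 2.11, 4.66 and 2.12 in MPC-Dif. For these genes the MPC-Dif libraries lay far below all others, and the pgEpiSCs-MCs libraries below or at the edge of the pgEpiSCs range. *KIF11*, the motor that separates the spindle poles, overlapped that range at day 44, with 70.6 to 79.0 TPM in pgEpiSCs, 190 and 157 in pgEpiSCs-MPCs, 89.5, 78.6 and 76.5 in pgEpiSCs-MCs and 13.1, 10.2 and 8.35 in MPC-Dif. *ANLN*, the anillin of the contractile ring, was unlike them in MPC-Dif, where 30.5, 25.5 and 24.9 TPM lay next to 33.0, 27.4 and 29.5 TPM in pgEpiSCs-MCs. *CENPE*, a kinetochore motor, also kept 16.2 to 21.4 TPM in MPC-Dif against 39.9 to 46.8 TPM in pgEpiSCs. *PRC1*, a bundler of midzone microtubules, was at most 0.702 TPM in any library, a level at which the added 1 of the log scale hides most of a change.

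Tests were made by limma on log2(TPM + 1) in 1 model, and differences with an adjusted p under 0.05 (Benjamini-Hochberg, 14957 genes) are named as calls. The comparisons against pgEpiSCs share its 6 libraries. Between passages few members differed. High passage had 0 S-phase genes higher and 2 lower, with 1 mitotic gene higher and 0 lower, against 8.36% higher and 15.7% lower of all genes tested. *MCM2*, *PCNA*, *CDK1* and *TOP2A* were among the 41 members that did not pass. *GINS2*, a subunit of the GINS complex, fell by 0.43 on the log2 scale (standard error 0.099, adjusted p = 0.0064, limma), from 32.8, 28.8 and 31.5 to 25.8, 23.8 and 19.0 TPM, without overlap, but was not called when only these 2 groups were fitted (adjusted p = 0.0853). *E2F2* fell by 0.43 (adjusted p = 0.046, limma), a call that was lost when any 1 of 12 libraries was left out (adjusted p 0.0564 to 0.12). The mitotic gene was *PRC1*, at 0.136 to 0.468 TPM against 0.683 to 0.702 TPM. It exceeded the 0.5 TPM of the filter in pgEpiSCs-high alone, so it was tested only through the group in which it is high, and its calls here and below are no support for a difference. It also lost this call without pgEpiSCs-Low 1 or 3 or pgEpiSCs-high 2 or 3 (adjusted p 0.0516 to 0.079, limma). The median member differed by -0.08 in both classes and the median gene by -0.04.

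At day 8 most members rose over pgEpiSCs, taken as the mean of both passages. Of the S-phase genes 15 were higher, 2 lower and 5 did not pass, and of the mitotic genes 18 were higher, 0 lower and 4 did not pass, against 47.5% higher and 21.4% lower of all genes tested. The median log2 difference was 0.47 for S-phase genes, 0.61 for mitotic genes and 0.24 for all genes. The rise was led by *CDC25B* at 4.12 (standard error 0.074, adjusted p = 1.3e-14), *E2F1* at 1.83 (0.070, 2.3e-11) and *E2F2* at 1.57 (0.15, 3.1e-07), by limma. *PCNA* at 1.20, *KIF11* at 1.20, *CENPF* at 1.16, *CENPE* at 1.12, *POLE* at 1.04 and *TOP2A* at 0.96 followed. By role, all 4 G1/S regulators, all 5 checkpoint genes and all 3 centromere genes were higher, as were 6 of 11 genes of helicase loading and firing, 3 of 5 polymerase and clamp genes and 3 of 6 mitotic entry genes, and the roles were not tested against each other. Some of these calls were lost under another scaling, as given below. The 2 lower members were both of helicase loading and firing, *MCM10* at -0.43 (adjusted p = 0.0028, limma) and *MCM4* at -0.23 (adjusted p = 0.0094, limma), the second of which was not called without pgEpiSCs-MPCs 1 (adjusted p = 0.242). *MCM2*, *MCM5*, *CDC6*, *RFC3*, *POLA1*, *CCNB1*, *CDC25C*, *PLK1* and *PRC1* did not pass. Some of them were called lower under another scaling, also given below. In the same comparison 6 of 7 neural markers were higher and 1 lower, and 6 of 10 skeletal muscle markers were higher and 1 lower. Of the 5 muscle progenitor markers 2 were higher and 2 lower, and of the 8 fibroblast markers 2 were higher and 2 lower. All 5 epithelial markers and 5 of 6 pluripotency markers were lower. The part of any of these cell types in the rise was not tested.

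The size of the day 8 rise depended on the scaling. TPM moved the median gene by 0.24 here, and under median-of-ratios scaling, which sets that median to about 0, the median S-phase gene differed by 0.16 and the median mitotic gene by 0.30. Under it 11 S-phase genes were higher and 6 lower, and 13 mitotic genes higher and 2 lower. Of all 14957 genes tested, 5015 were higher and 4891 lower under it. Under it the S-phase genes *MCM3*, *MCM7*, *TYMS* and *CDC25A* lost their calls (adjusted p 0.39 to 0.942, limma). The mitotic genes *CDK1*, *MAD2L1* and *CDC20* (checkpoint) and *CENPA* (centromere) also lost theirs (adjusted p 0.0701 to 0.377, limma). *CDC6*, *RFC3*, *POLA1*, *CCNB1* and *PLK1*, which did not pass as deposited, were called lower, at -0.41 to -0.326. *MCM2* and *BUB1*, a checkpoint kinase, changed sign under the same scaling, *MCM2* with a call as lower, and *CDC25A* changed sign under quantile normalization. *BUB1* was called at 0.24 (adjusted p = 0.047, limma) and lost its call without any 1 of 9 libraries (adjusted p 0.0508 to 0.222). *CDC25A* was not called without pgEpiSCs-MPCs 2 (adjusted p = 0.0712), nor *CENPA* without pgEpiSCs-MPCs 1 (adjusted p = 0.0616), and this group has 2 libraries.

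By day 44 the S-phase genes had fallen further than the mitotic genes relative to pgEpiSCs. Of the S-phase genes 0 were higher, 19 lower and 3 (*GINS2*, *E2F1* and *E2F2*) did not pass, and of the mitotic genes 1 was higher, 20 lower and 1 (*KIF11*) did not pass, against 50.8% higher and 30.9% lower of all genes tested. The median log2 difference was -1.54 for S-phase, -0.67 for mitotic and 0.27 for all genes. The largest falls were those of *MCM10* at -2.25 (standard error 0.093, adjusted p = 1.5e-11), *CDC6* at -1.97 (0.11, 3e-10) and *MCM3* at -1.96 (0.054, 2.4e-13), by limma. Among mitotic genes *CCNB1* fell most, at -1.74, while *TOP2A* at -0.34 (adjusted p = 0.0088, limma), *KIF23*, a midzone motor, at -0.41, *AURKB*, the kinase of the chromosomal passenger complex, at -0.44 and *CENPF* at -0.45 fell less. *CDC25B* was higher, at 3.19 (standard error 0.064, adjusted p = 9.9e-15, limma). Members at the threshold were *ANLN* at -0.20 (adjusted p = 0.035, limma), which was not called without any 1 of 6 libraries (0.0522 to 0.175), and *TOP2A*, which was not called against pgEpiSCs-high alone (-0.23, adjusted p = 0.0912). *PRC1*, counted among the lower genes, differed by -0.05 from pgEpiSCs-Low alone (adjusted p = 0.723, limma), and lost its call without any 1 of 5 libraries (adjusted p 0.0501 to 0.108). *CDC25C*, also counted there, passed the filter only through groups in which it is high. Its calls here and below are therefore no support for a difference. Of the genes that did not pass, *E2F1* was called lower under median-of-ratios scaling, quantile normalization and without mitochondrial genes (-0.31, -0.35 and -0.35), and so was *GINS2* (-0.31, -0.46 and -0.36). *E2F2*, at 0.04, changed sign and was called lower under quantile normalization, at -0.56.

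In terms of level, the median S-phase gene held 33.9% of its pgEpiSCs mean TPM at day 44 and the median mitotic gene 55.6%. The range was from 18.7% (*MCM10*) to 102% (*E2F2*) for S-phase genes and from 19.0% (*CDC25C*) to 974% (*CDC25B*) for mitotic genes. At day 8 the corresponding medians were 138% and 153%, and in MPC-Dif 14.5% and 8.40%. The order of the classes was thus reversed between pgEpiSCs-MCs and MPC-Dif.

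**Figure D4:**
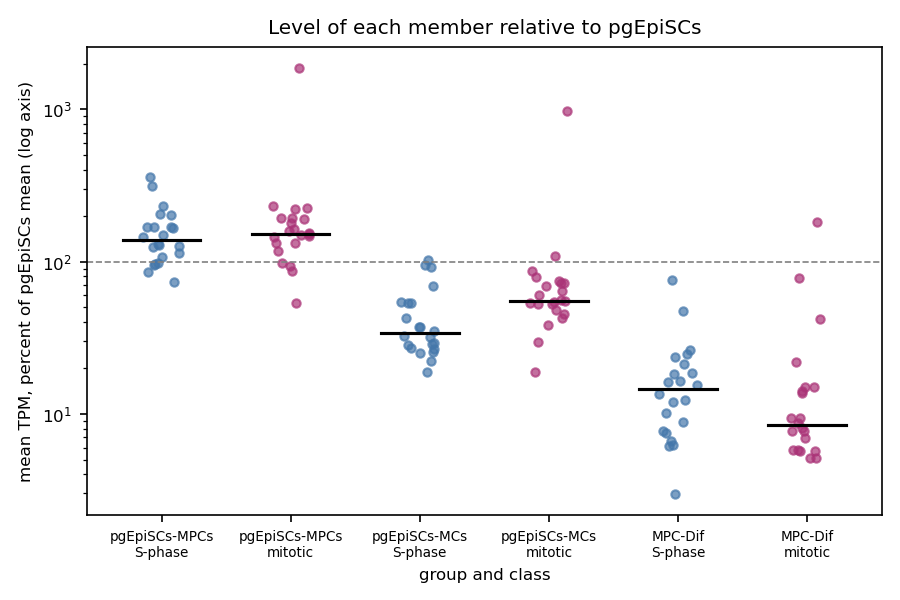
Mean TPM of each member as a percent of its pgEpiSCs mean (vertical log axis), by group and class, with bars for medians and a dashed line at 100%. Medians of S-phase and mitotic genes are 33.9% and 55.6% in pgEpiSCs-MCs and 14.5% and 8.40% in MPC-Dif, where *CDC25C* at 0 is not drawn.

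The same balance can be read in each library as the mean log2(TPM + 1) of the mitotic genes minus that of the S-phase genes. This difference was -0.28 to -0.24 in pgEpiSCs-Low, -0.28 to -0.17 in pgEpiSCs-high, 0.02 and -0.08 in pgEpiSCs-MPCs, 0.53 to 0.56 in pgEpiSCs-MCs and -0.48 to -0.25 in MPC-Dif. The 3 pgEpiSCs-MCs libraries stood above all 11 others. Both averages come from the same library, so a scaling that multiplies all genes of a library alike moves them together, except near 1 TPM.

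**Figure D5:**
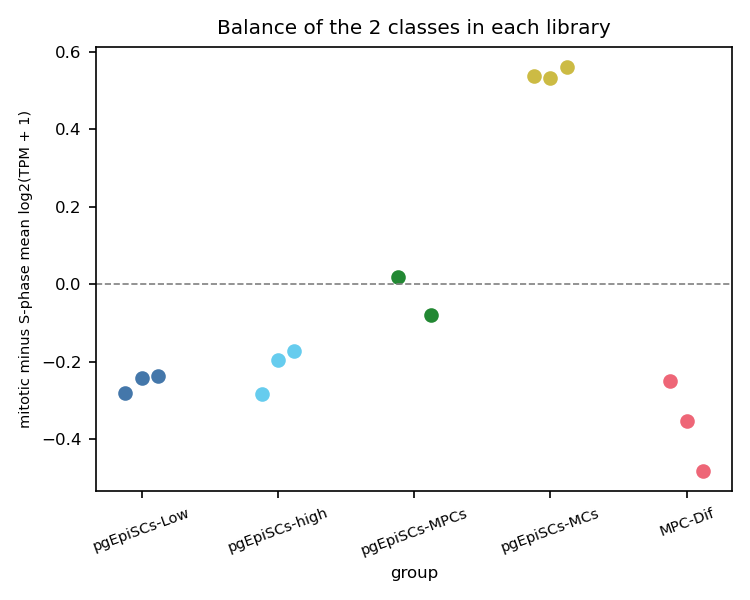
Mean log2(TPM + 1) of the 22 mitotic genes minus that of the 22 S-phase genes (vertical axis) in each library, by group. The pgEpiSCs-MCs libraries lie at 0.53 to 0.56 and all other libraries at 0.02 or below.

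From day 8 to day 44 all 22 S-phase genes fell and 21 of 22 mitotic genes fell, with *PRC1* not passing, against 34.5% higher and 36.1% lower of all genes tested. The median log2 difference was -1.87 for S-phase, -1.35 for mitotic and -0.01 for all genes. *PCNA* fell most, at -2.79 on the log2 scale (standard error 0.073, adjusted p = 7.7e-13, limma), followed by *POLE* at -2.41 and *GINS1* at -2.32, whereas the largest mitotic fall was that of *TTK*, a checkpoint kinase, at -1.74. *E2F1* fell at -1.90 and *E2F2* at -1.53. These counts share the day 8 and day 44 libraries with the comparisons above and are not separate evidence. They include *CDC25C*, whose call is no support for the reason given above.

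In MPC-Dif nearly the whole set was lower than in pgEpiSCs. All 22 S-phase genes and 21 of 22 mitotic genes were lower and 1 mitotic gene higher, against 37.4% higher and 44.1% lower of all genes tested. The lower mitotic genes include *CDC25C* and *PRC1*, which passed the filter only through groups in which they are high. Their calls are no support for a difference. The median log2 difference was -2.49 for S-phase, -3.27 for mitotic and -0.10 for all genes. The largest falls were mitotic, *CENPF* at -4.11 (standard error 0.11, adjusted p = 1.1e-13), *TOP2A* at -4.10 (0.11, 5.7e-14) and *CCNB1* at -4.07 (0.064, 4e-16), by limma. The largest S-phase falls were those of *MCM2* at -3.92, *CDC6* at -3.88 and *MCM3* at -3.82. These ranks are those of the log2(TPM + 1) scale. In mean TPM *CDC6* held 2.99% of its pgEpiSCs level, against 6.29% for *MCM2* and 5.15% for *CENPF*. Over both classes the smallest falls were those of the mitotic gene *ANLN* at -0.35 and the S-phase gene *TYMS* at -0.39. *PRC1* at -0.40 came next on this scale only. Its mean TPM was 21.95% of that in pgEpiSCs, against 78.15% for *ANLN* and 75.9% for *TYMS*. *CDC25B* was higher at 0.81 (standard error 0.064, adjusted p = 2.3e-08, limma). The directions of *CDC25B* and of both class medians were the same under median-of-ratios scaling, quantile normalization and without the mitochondrial genes.

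Set directly against MPC-Dif, pgEpiSCs-MCs had more of most members. Of the S-phase genes 21 were higher and 1 lower, and of the mitotic genes 19 were higher, 0 lower and 3 (*CDC25C*, *PRC1* and *ANLN*) did not pass, against 50.0% higher and 29.1% lower of all genes tested. The median log2 difference was 1.42 for S-phase, 2.46 for mitotic and 0.29 for all genes. In mean TPM the median S-phase gene was 3.03-fold and the median mitotic gene, over the 21 detected in MPC-Dif, 6.64-fold higher. *TOP2A* at 3.76 (standard error 0.12, adjusted p = 1.5e-12), *CENPF* at 3.67 (0.13, 3.9e-12) and *CENPA* at 3.10 (0.17, 5.7e-10) differed most, by limma, and *E2F2* at 2.56 and *E2F1* at 2.39 led the S-phase genes on this scale. In mean TPM *CDC6*, at 7.47-fold, stood between *E2F2* at 10.01-fold and *E2F1* at 5.81-fold. *TYMS* was lower, at -0.47 (standard error 0.069, adjusted p = 2.1e-05, limma). Smaller called differences were those of *PCNA* at 0.39 and *RFC3* at 0.28. Under median-of-ratios scaling *PCNA* was not called and *RFC3* changed sign, and under quantile normalization *RFC3*, *POLA1*, *CDC25A* and *PRC1* changed sign, while the class medians stayed at 1.02 or above for S-phase and 2.15 or above for mitotic genes under both. *ANLN* was called without MPC-Dif 1 (adjusted p = 0.0289). The marker lists differed as well. In pgEpiSCs-MCs all 7 neural markers were higher than in MPC-Dif, and of the 8 fibroblast markers 0 were higher and 7 lower. Of the 10 skeletal muscle markers 3 were higher and 5 lower, and of the 5 muscle progenitor markers 3 were higher and 1 lower. Of the 5 epithelial markers 4 were higher and 1 lower, and of the 6 pluripotency markers 4 were higher and 0 lower. The part of any of these cell types in the difference was not tested.

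Genes of the same processes outside the set were counted in the same way. The shares over all genes given above for each comparison apply here too, 47.5% higher at day 8, 30.9% lower at day 44 and 44.1% lower in MPC-Dif. Of 36 other replication genes, 28 were higher and 2 lower at day 8, 2 higher and 33 lower at day 44 and 2 higher and 34 lower in MPC-Dif, each against pgEpiSCs. Of 48 other mitosis genes the counts were 40 and 2, 6 and 34, and 1 and 46. *UHRF1*, which carries DNA methylation through replication, stood at 197 to 325 TPM in pgEpiSCs, 556 and 580 in pgEpiSCs-MPCs, 134, 119 and 119 in pgEpiSCs-MCs and 7.11 to 8.27 in MPC-Dif. *ORC1*, the subunit of the origin complex that cycles with the cell, was lower at day 8, at -0.62 on the log2 scale, at day 44, at -2.96, and in MPC-Dif, at -4.89. *ORC4*, another subunit, was higher in all 3, at 0.38, 1.03 and 0.32. *PBK*, a mitotic kinase, rose most among the mitosis genes at day 8, at 2.35, and was higher at day 44, at 0.86, together with *KIF14* at 0.64. From day 8 to day 44, 35 of 36 other replication genes and 44 of 48 other mitosis genes fell, and between pgEpiSCs-MCs and MPC-Dif 28 and 46 were higher and 5 and 1 lower in pgEpiSCs-MCs. Between passages 10 of 36 replication genes were lower at high passage and 0 higher, led by *UHRF1* at -0.61 (adjusted p = 1.9e-05, limma), and 3 of 48 mitosis genes were higher and 5 lower.

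Of the 17 genes for E2F, RB and DREAM proteins, which switch the cell cycle genes on and off, 11 were higher and 1 lower at day 8, 4 higher and 10 lower at day 44, and 3 higher and 13 lower in MPC-Dif, each against pgEpiSCs and beside the same shares over all genes. The pocket protein gene *RB1*, a repressor of E2F targets, stood at 4.64 to 7.57 TPM in pgEpiSCs, 29.8 and 28.8 in pgEpiSCs-MPCs, 52.3, 46.3 and 51.0 in pgEpiSCs-MCs and 23.2, 19.4 and 18.9 in MPC-Dif. *RBL2*, the pocket protein of DREAM in resting cells, was at 9.42 to 12, then 33.3 and 33.1, then 40.7 to 44.4, and 37.6 to 45.0 TPM. Both were lowest in pgEpiSCs in all 6 libraries. *MYBL2*, which turns the same complex into an activator, ran the other way, from 359 to 420 TPM in pgEpiSCs to 272 and 298, then 127 to 137, and 14.4 to 19.4 TPM. Between passages 0 of the 17 were higher and 2 lower. From day 8 to day 44 there were 2 higher, *RB1* and *RBL2*, and 13 lower, and between pgEpiSCs-MCs and MPC-Dif 11 were higher and 3 lower in pgEpiSCs-MCs, against 50.0% and 29.1% of all genes.

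The 4 names found under Ensembl identifiers, and *FOXM1*, a transcription factor for mitotic genes that was added after its values had been seen, are no members and are described only. *FOXM1* was at 14.8 to 21.8 TPM in pgEpiSCs, 29.3 and 33.2 in pgEpiSCs-MPCs, 12.3 to 17.0 in pgEpiSCs-MCs and 1.58 to 3.45 in MPC-Dif. *NUSAP1*, a spindle protein, and *CDK2*, the partner of cyclin E, stood above every pgEpiSCs library at day 44, with 169 to 173 TPM against 124 to 152 TPM for *NUSAP1* and 42.0 to 46.3 TPM against 29.5 to 39.0 TPM for *CDK2*. *CDT1*, the second loader of the helicase, was at 11 to 30.4 TPM in pgEpiSCs, 27.9 and 37.4 in pgEpiSCs-MPCs, 6.59 to 8.57 in pgEpiSCs-MCs and 2.84 to 3.85 in MPC-Dif.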

How the data were processed

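RNA with a poly-A tail was sequenced. According to the methods and processing notes the authors trimmed the reads, mapped them to Sscrofa11.1 with HISAT2 and counted them with featureCounts, and the deposited table gives TPM calculated by the authors for 14 libraries. TPM keeps no depth, so a count test could not be used. TPM expresses shares, so a large change in abundant RNA shifts all other genes.

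Tests were made on log2(TPM + 1) by limma 3.58.1 in R 4.3.3 (lmFit, eBayes with trend), 1 mean per group, tested on simulated data. Fold changes on this scale understate changes of low genes. A gene was tested if its TPM exceeded 0.5 in at least 50% of the libraries of 1 group. Members and lists were chosen with earlier results of these data known. Per-library values are given for fixed key genes, the 3 largest called rises and falls per comparison and called members against their class. Promoters were read with pysam 0.24.0. Replicate numbers showed no visible pairing of the libraries. Alternatives were other pseudocounts, filters, scalings and models, either passage alone, a replicate block, a fold threshold and each library left out.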

Additional observations from a re-analysis of the deposited data

How the results depend on the processing

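Of 6588 values of single members under 26 other settings, 6460 kept their side of the threshold and, where called, their direction. A further 75 lost a call, 43 gained one and 10 changed sign with a call in either fit. Sign changes of members called in neither fit are among the 6460 and are not listed. Against pgEpiSCs at day 8 the sign changed for *MCM2* (-0.20) and *BUB1* (-0.074) under median-of-ratios scaling and for *CDC25A* (-0.085) and *BUB1* (-0.03) under quantile normalization, and at day 44 for *E2F2* (-0.56, quantile). Between pgEpiSCs-MCs and MPC-Dif it changed for *RFC3* (-0.041 under median-of-ratios, -0.32 under quantile), *POLA1* (-0.20), *CDC25A* (-0.29) and *PRC1* (-0.35), all under quantile normalization. Between passages the 2 called S-phase genes became 1 with a pseudocount of 0.1 or 0.5, quantile normalization or no mitochondrial genes, and 4 (3 higher) with median-of-ratios scaling. With that scaling 1931 of all 14957 genes were higher and 1653 lower between passages. The 1 called mitotic gene became 0 with a pseudocount of 0.1 or a filter at TPM above 2, which tests 20 of them. Leaving out single libraries gave 1 to 3 S-phase and 0 to 4 mitotic calls. Beyond a log2 fold change of 1 the calls were 0 and 0 between passages, 4 S-phase and 4 mitotic at day 8, and 5 mitotic at day 44 against pgEpiSCs. The S-phase count at day 44 and the other comparisons are not given here. The share of all genes beyond this fold change was not counted, so these counts cannot be set against it. The cause of the changes between settings was not tested.

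The replicate block gave 1 S-phase call between passages in place of 2, and in the other comparisons it changed no count of members called by more than 1. Deviations of same-numbered libraries of different groups correlated at a median of -0.01 (-0.156 to 0.131), and those of other pairs at 0.016 (-0.153 to 0.182). No pairing by number was visible. Deviations from the mean of 2 or 3 libraries sum to 0, so this cannot settle whether libraries were paired. Among called genes of the whole table the share that was lower moved with scaling (as deposited, median-of-ratios, quantile): 65.2%, 46.1% and 48.2% between passages, 31.0%, 49.4% and 53.6% at day 8, 37.8%, 45.5% and 55.9% at day 44 against pgEpiSCs, and 36.8%, 49.5% and 54.1% between pgEpiSCs-MCs and MPC-Dif. The day 8 group has 2 libraries, and TPM leaves the depth behind every value unknown.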
